A study of Homo sapiens with 16 samples.

Results

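The transcripts described here are the named long noncoding and antisense RNAs of a gene table from U2OS cells, a human osteosarcoma line. They were chosen by name alone: symbols of LINC followed by digits, or symbols ending in -AS1, -AS2, -IT1 or HG. The table holds 8808 genes. Of their names 157 fitted, 1 was left out by the rule, and 156 members remained, of which 51 carry LINC names, 84 end in -AS1, 7 in -AS2, 10 in -IT1 and 4 in HG. The study transfected small interfering RNAs (siRNAs) against 5 chromatin proteins and sequenced polyadenylated RNA. The siRNA groups were siMRG15 (target gene MORF4L1), siMRGX (MORF4L2), siMRGBP, siBRD8 and siTIP60 (KAT5), with siLuc, an siRNA against luciferase, as the control, and each of the 6 groups held 2 libraries. MRG15 and MRGX are paralogous proteins that take part in several complexes. These include the histone acetyltransferase assembly named after TIP60, to which MRGBP and BRD8 also belong. Pooled siRNAs were used for every target but BRD8, which was targeted by a single catalogue item, and the labels name no hours of treatment, no passage and no separate cultures. All libraries came from the same cell line in the same medium, with no other treatment.

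Long noncoding RNAs are transcribed and often spliced and polyadenylated like messenger RNAs but are not known to encode a long protein. A suffix of AS marks a transcript from the strand opposite to the gene it is named after, IT marks one that lies within an intron of that gene, and HG marks a host whose introns or exons carry microRNAs. Some act on chromatin or on other RNAs, some are by-products of a shared promoter, and for many no function is known. LINC names are given to intergenic transcripts in order of discovery and carry no information on function.

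The names held up in part against the annotation. In RefSeq (GRCh38.p14) 114 members matched a current symbol, 32 an older name of 1 gene, 2 an older name of more than 1 gene and 8 none. Of those matched to 1 gene, 136 were annotated as long noncoding RNA and 1 as antisense RNA, 2 as transcribed pseudogenes and 7 as protein coding, namely ENO1-IT1, HNRNPU-AS1, LINC00085 (now SPACA6), LINC00176, LINC00341, LINC00634 and MMP24-AS1 (now MMP24OS). The names in the table are thus older than the annotation. For these 7 the match rests on an older name of a coding gene, and the transcript counted under that name may still be noncoding. Of the members, 55 overlapped another gene of the table in RefSeq. The sources used here do not state whether strand was used in counting, so for an overlapping pair reads of the sense and the antisense transcript cannot be told apart.

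Values are CPM, reads scaled to the authors' library size, and CPM is not divided by transcript length, so it gives the reads behind a value and no order of abundance between transcripts. The members summed to 926 to 1510.3 CPM per library, or 64145 to 139192 reads. They summed to 1071 and 1058 CPM in siLuc, 952 and 926 in siMRG15, 1188 and 1190.0 in siMRGX, 1247 and 1246 in siMRGBP, 1165 and 1161 in siBRD8 and 1510.3 and 1467 in siTIP60, so that siMRG15 lay lowest and siTIP60 highest, without overlap with siLuc. A few members made up much of these differences: of the 125 CPM by which the mean sum in siMRG15 lay below siLuc, OIP5-AS1 accounted for 98.6, and of the 424 CPM by which siTIP60 lay above it, LINC00452 accounted for 197. Averaged over the 12 libraries 49 members lay under 1 CPM, 72 between 1 and 5 CPM and 35 at 5 CPM or more, and the 3 with the most reads (C17orf76-AS1, LINC00452 and OIP5-AS1) held 31.2% of the sum. No member was without reads in any library. In bulk RNA, fewer cells with a transcript and less of it per cell cannot be told apart.

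Each siRNA lowered its own target: MORF4L1 read 315 and 328 CPM in siLuc and 15.7 and 13.7 in siMRG15, MORF4L2 240.2 and 298 and then 20.3 and 19.5 in siMRGX, MRGBP 91.4 and 115 and then 7.96 and 7.82 in siMRGBP, BRD8 80.05 and 73.5 and then 18.6 and 18.5 in siBRD8, and KAT5 19.7 and 18.8 and then 2.48 and 2.803 in siTIP60. The targets also fell under other siRNAs. In siTIP60 all 5 fell, with MRGBP at -1.18, MORF4L2 at -0.94, BRD8 at -0.69 and MORF4L1 at -0.66 (log2 differences from siLuc), and in siMRG15 MORF4L2 (-0.76) and MRGBP (-0.58) fell beside MORF4L1. In siMRGBP 4 of the 5 fell and in siBRD8 3, whereas in siMRGX MORF4L2 alone passed. Library sizes recovered from the values were 57255783 to 110402095 reads. Of the osteoblast and mesenchymal markers 6 of 10 are in the table, with vimentin (VIM) at 2383 and 2114 CPM in siLuc. They summed to 4036 to 4831 CPM in siLuc and to between 3024 (siMRGX) and 4889 (siTIP60) in the knockdowns. Of the 6, 4 rose in siTIP60 and 1, COL1A1, fell (-0.41), where 41.1% and 37.7% of all listed genes did. In siMRG15 0 rose and 4 fell (33.5% and 35.8% of all). In siMRGX 2 rose and 4 fell (28.2% and 40.0% of all). In siMRGBP 2 rose and 1 fell (32.1% and 32.9% of all), and in siBRD8 2 rose and 0 fell (28.3% and 25.9% of all). Of the erythroid and myeloid markers of K562, the other line of the series, 2 of 10 are in the table: EPOR lay between 1.68 and 1.78 CPM in siTIP60 and 5.403 and 4.56 CPM in siLuc, and the haemoglobin gene HBA1 was at 0 to 0.0422 CPM except in siTIP60 replicate 1, at 6.74 CPM. Of the epithelial markers 3 of 6 are listed, and they summed to 80.5 to 97.2 CPM in siLuc, 47.6 to 49.3 in siMRG15, 139.9 to 151 in siMRGX, 104 to 105 in siMRGBP, 118 to 126 in siBRD8 and 152 to 154 in siTIP60. The keratin gene KRT18 made up most of these sums, at 91.8 and 76.1 CPM in siLuc. E-cadherin (CDH1) read 2.174 and 1.97 CPM in siLuc and 15.7 and 15.2 in siTIP60. KRT14 fell in siMRG15 (-0.86), siMRGX (-1.05) and siMRGBP (-0.82) and did not pass in siBRD8 (0.24) or siTIP60 (0.19). The part of these markers in the results below was not tested.

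Each difference is the mean log2(CPM + 1) of a knockdown less that of siLuc, or of another group where named, and carries its SE (n = 2 libraries in each group). The verbs rise and fall are kept for a limma adjusted p, taken over 8808 genes, below 0.05. The pseudocount makes these differences smaller than the ratio of the CPM for transcripts of few reads. The labels do not say that libraries came from separate cultures, so the spread behind the p-values is one between libraries and may be technical. The table holds only genes the authors selected as differentially expressed. Each count of members is therefore set beside the share of all listed genes that passed the same test. A member that passed in 1 knockdown alone may be listed because of that group, so its p-value there is no independent support. The 5 comparisons with siLuc share the same 2 control libraries.

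The noncoding transcripts moved in both directions in each knockdown. The most members passed in siTIP60, as did the most of all listed genes. In siTIP60, 77 members rose (49.4%, where 41.1% of all listed genes rose) and 46 fell (29.5%, where 37.7% fell). In siMRG15, 51 rose (32.7% beside 33.5% of all) and 43 fell (27.6% beside 35.8%). In siMRGX, 34 rose (21.8% beside 28.2%) and 59 fell (37.8% beside 40.0%). In siMRGBP, 38 rose (24.4% beside 32.1%) and 50 fell (32.1% beside 32.9%). In siBRD8, 37 rose (23.7% beside 28.3%) and 34 fell (21.8% beside 25.9%). Outside siTIP60 the risen and the fallen share of members each lay below that of all listed genes. In siTIP60 the risen share lay above and the fallen share below. The median of the mean CPM was 1.69 for members and 7.37 for all listed genes, and the part of level in these shares was not tested. The median difference of the 156 members was -0.01 in siMRG15, -0.14 in siMRGX, -0.03 in siMRGBP, 0.02 in siBRD8 and 0.25 in siTIP60, and over all genes it was -0.03, -0.10, -0.02, 0.01 and 0.05. Fitting siMRGBP and siLuc alone lowered the 50 that fell in siMRGBP to 33. Leaving out siBRD8 replicate 2 lowered the count that fell in siBRD8 to 22, and scaling by median-of-ratios factors, which moved the median of all genes by 0.11 in siMRGX, turned its 34 risen and 59 fallen members into 47 and 46.

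**Figure D1:**
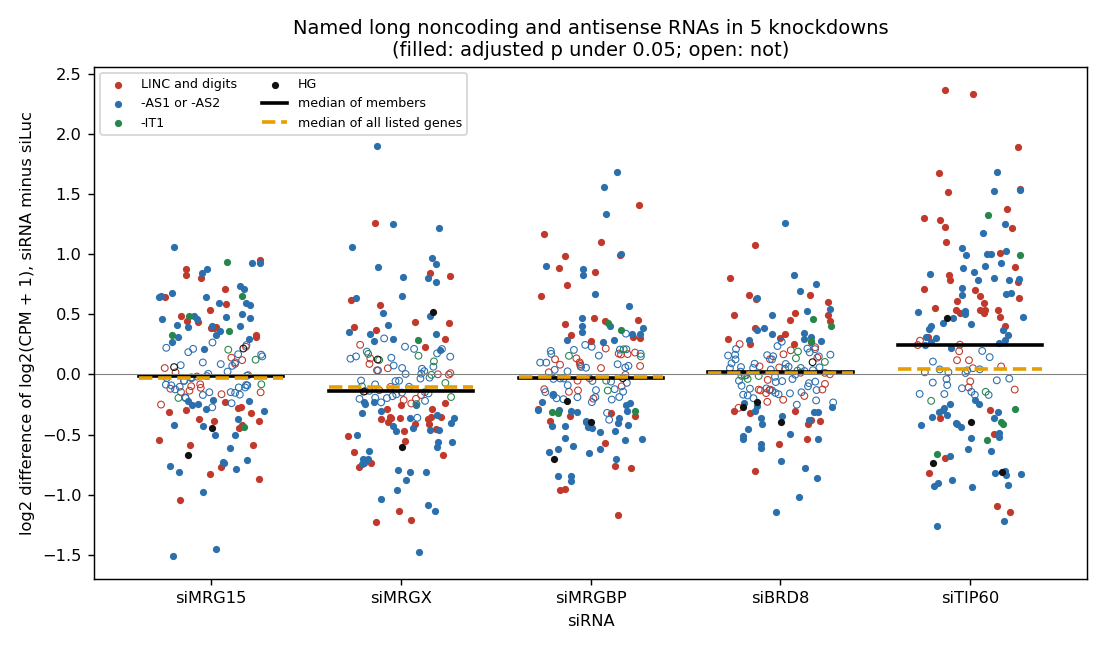
Each point is 1 of the 156 members; the horizontal axis gives the siRNA and the vertical axis the log2 difference from siLuc, filled where the adjusted p is under 0.05, with colours for the kind of name, a black bar for the median of the members and a dashed bar for that of all listed genes. The cloud is centred near 0 in 4 knockdowns and shifted upward in siTIP60, where the member median is 0.25 and the median of all listed genes 0.05.

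By kind of name, 33 of the 51 LINC members rose in siTIP60 (64.7%, beside 41.1% of all listed genes) and 7 fell (13.7% beside 37.7%), with a median difference of 0.53. Of the 91 -AS1 and -AS2 members 41 rose (45.1%) and 31 fell (34.1%), near the shares of all genes, with a median of 0.04. The difference between the kinds was not tested. Of the 10 -IT1 members 2 rose and 5 fell, and of the 4 HG members 1 rose and 3 fell. In siMRGX the LINC members had a median of -0.23, with 11 risen (21.6%, beside 28.2% of all) and 25 fallen (49.0%, beside 40.0%). Changes of at least 2-fold on the log2(CPM + 1) scale were made by 22 members upward in siTIP60 (12.3% of all listed genes) and by 4 downward (11.1% of all), which is 14.1% and 2.56% of the members. On this scale a transcript under 1 CPM in siLuc cannot fall 2-fold, however deep its fall in CPM. Averaged over the libraries 31.4% of members lay under 1 CPM, beside 16.8% of all listed genes, so the downward shares cannot be compared.

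In siMRG15 the transcripts that fell furthest were OIP5-AS1, LOXL1-AS1, LINC00460, APCDD1L-AS1 and LINC00452, and those that rose furthest were RNF157-AS1, LINC00680, SOS1-IT1, KDM5B-AS1 and LIFR-AS1. OIP5-AS1, a conserved long noncoding RNA also called Cyrano that pairs with the microRNA miR-7, read 149.8 and 153 CPM in siLuc, 53.5 and 51.8 in siMRG15, 95.01 and 90.4 in siMRGX, 134 and 137 in siMRGBP, 105 and 107 in siBRD8 and 117 and 119 in siTIP60. Both siMRG15 libraries lay below every other library, and the groups did not overlap with siLuc in any knockdown. The fall in siMRG15 was -1.50 ± 0.06, limma adjusted p = 4.22e-10.

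LOXL1-AS1, antisense to the gene of the elastin cross-linking enzyme LOXL1, read 34.1 and 37.1 CPM in siLuc, 12.5 and 12.2 in siMRG15, 19.5 and 18.4 in siMRGX, 30.98 and 33.9 in siMRGBP, 37.99 and 37.7 in siBRD8 and 30.4 and 30.6 in siTIP60. It was low in siMRG15 (-1.45 ± 0.07, limma adjusted p = 2.4e-09) and in siMRGX (-0.87 ± 0.07, limma adjusted p = 1.56e-07), and in siBRD8 and siMRGBP it did not pass (0.09 and -0.13). RNF157-AS1, overlapping the gene of the ubiquitin ligase RNF157, read 0.286 and 0.373 CPM in siLuc, 1.77 and 1.76 in siMRG15, 0.158 and 0.112 in siMRGX, 0.349 and 0.244 in siMRGBP, 0.199 and 0.167 in siBRD8 and 0.521 and 0.348 in siTIP60. Its siMRG15 libraries stood above the other 10, and the rise was 1.06 ± 0.09, limma adjusted p = 3.07e-07. SOS1-IT1, from an intron of the Ras exchange factor gene SOS1, read 2.13 and 2.05 CPM in siLuc and 5.15 and 4.67 in siMRG15 (0.93 ± 0.11, limma adjusted p = 6.81e-06). It did not pass in the other 4 knockdowns, where its differences ran from -0.25 in siMRGX to 0.13 in siBRD8.

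KDM5B-AS1, beside the gene of a histone H3 lysine demethylase, rose in siMRG15 from 1.29 and 1.02 to 3.03 and 3.14 CPM (0.93 ± 0.10, limma adjusted p = 3.11e-06). LIFR-AS1, opposite to the gene of the leukaemia inhibitory factor receptor, rose there from 0.976 and 0.9102 to 2.45 and 2.95 CPM (0.93 ± 0.09, limma adjusted p = 1.99e-06). Each of the pair rose in 4 knockdowns and fell in 0, and in siTIP60 they rose by 0.79 and 0.68. LINC00460 fell in siMRG15 and rose in siTIP60: it read 7.19 and 8.005 CPM in siLuc, 3.504 and 2.86 in siMRG15, 8.498 and 7.76 in siMRGX, 16.5 and 13.4 in siMRGBP, 12.5 and 12.6 in siBRD8 and 28.4 and 24.7 in siTIP60. The siMRG15 libraries lay below the rest and the siTIP60 libraries above the rest, and the differences were -1.04 ± 0.11, limma adjusted p = 2.99e-06 in siMRG15 and 1.68 ± 0.11, limma adjusted p = 1.84e-08 in siTIP60.

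In siMRGX the largest rises were those of MMP24-AS1, LINC00520, APCDD1L-AS1, TRAPPC12-AS1 and EPB41L4A-AS1, and the largest falls those of A2M-AS1, LINC00173, LINC00639, STARD4-AS1 and LINC00339. MMP24-AS1, which RefSeq now lists as protein coding, read 4.22 and 4.71 CPM in siLuc, 6.21 and 6.16 in siMRG15, 19.4 and 19.2 in siMRGX, 6.31 and 5.09 in siMRGBP, 7.86 and 7.096 in siBRD8 and 4.496 and 4.14 in siTIP60. The siMRGX libraries stood above the other 10, and the rise was 1.90 ± 0.10, limma adjusted p = 4.79e-09. APCDD1L-AS1 moved in opposite directions under the siRNAs against the paralogs: it read 36.7 and 35.4 CPM in siLuc, 17.2 and 18.5 in siMRG15, 86.6 and 88.00 in siMRGX, 70.2 and 64.4 in siMRGBP, 52.2 and 50.2 in siBRD8 and 56.1 and 58.96 in siTIP60. Both siMRG15 libraries lay under siLuc and the other 8 knockdown libraries above it, with -0.98 ± 0.06, limma adjusted p = 4.01e-08 in siMRG15 and 1.25 ± 0.06, limma adjusted p = 5.57e-09 in siMRGX.

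A2M-AS1, at the gene of the protease inhibitor alpha-2-macroglobulin, read 2.174 and 3.73 CPM in siLuc and 0.373 and 0.4196 in siMRGX, with a wide gap between the siLuc libraries, and fell by -1.47 ± 0.16, limma adjusted p = 3.94e-06. STARD4-AS1, named after a sterol carrier gene, went from 5.29 and 5.04 CPM to 1.82 and 1.79 in siMRGX (-1.13 ± 0.11, limma adjusted p = 9.33e-07) and 1.71 and 1.59 in siTIP60 (-1.22 ± 0.11, limma adjusted p = 2.69e-07). LINC00639 had 3.54 and 3.26 CPM in siLuc, 0.861 and 0.937 in siMRGX (-1.21 ± 0.11, limma adjusted p = 5.14e-07) and 7.42 and 9.55 in siMRGBP (1.10 ± 0.11, limma adjusted p = 1.72e-06). Its siMRGX libraries were the lowest of the 12 and its siMRGBP libraries the highest. TRAPPC12-AS1 rose in siMRGX by 1.22 ± 0.10, limma adjusted p = 3.28e-07, and LINC00339 fell by -1.13 ± 0.09, limma adjusted p = 2.88e-07.

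In siMRGBP the largest rises were those of PVRL3-AS1, CFLAR-AS1, LINC00452, MCF2L-AS1 and LINC00508, and the largest falls those of LINC00085, LINC00176, LINC00173, OGFR-AS1 and TMPO-AS1. PVRL3-AS1, next to the gene of the adhesion protein nectin-3, read 8.66 and 8.13 CPM in siLuc, 6.502 and 6.05 in siMRG15, 3.52 and 3.34 in siMRGX, 29.5 and 28.8 in siMRGBP, 12.05 and 13.1 in siBRD8 and 7.75 and 8.42 in siTIP60. The siMRGBP libraries stood above the other 10 and the siMRGX libraries below them, with 1.68 ± 0.08, limma adjusted p = 3.03e-09 in siMRGBP and -1.08 ± 0.08, limma adjusted p = 7.39e-08 in siMRGX. CFLAR-AS1, at the gene of the caspase-8 inhibitor FLIP, read 3.29 and 3.83 CPM in siLuc, 1.92 and 1.56 in siMRG15, 4.12 and 4.43 in siMRGX, 12.9 and 11.98 in siMRGBP, 7.25 and 6.87 in siBRD8 and 9.25 and 9.36 in siTIP60. It was high in siMRGBP (1.56 ± 0.09, limma adjusted p = 2.35e-08), siTIP60 (1.18 ± 0.09, limma adjusted p = 9.01e-08) and siBRD8 (0.82 ± 0.09, limma adjusted p = 8.93e-06), and low in siMRG15 (-0.74 ± 0.09, limma adjusted p = 1.22e-05).

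LINC00452 read 72.6 and 70.8 CPM in siLuc, 40.4 and 37.03 in siMRG15, 71.5 and 71.7 in siMRGX, 185 and 199 in siMRGBP, 113 and 106 in siBRD8 and 267 and 272 in siTIP60. It rose in siMRGBP (1.41 ± 0.06, limma adjusted p = 2.93e-09) and siTIP60 (1.89 ± 0.06, limma adjusted p = 6.91e-11), fell in siMRG15 (-0.87 ± 0.06, limma adjusted p = 1.02e-07), and in siMRGX overlapped with siLuc. MCF2L-AS1, opposite to MCF2L, rose from 1.07 and 1.27 to 4.19 and 4.74 CPM (1.33 ± 0.09, limma adjusted p = 8.82e-08). LINC00085 fell from 5.92 and 5.66 to 1.69 and 2.38 CPM (-1.17 ± 0.12, limma adjusted p = 2.21e-06) and LINC00176 from 3.67 and 2.695 to 1.07 and 1.21 CPM (-0.96 ± 0.11, limma adjusted p = 7.8e-06), and RefSeq now annotates both as protein coding. OGFR-AS1 overlaps the siRNA target MRGBP in RefSeq. It fell from 1.33 and 1.04 to 0.105 and 0.257 CPM in siMRGBP (-0.89 ± 0.10, limma adjusted p = 8.3e-06), and its reads cannot be told apart from those of MRGBP without strand. In siBRD8 it fell to 0.389 and 0.539 CPM (-0.57 ± 0.10, limma adjusted p = 0.000425), where MRGBP itself fell (-0.43 ± 0.09, limma adjusted p = 0.00105). MRGBP also fell in siMRG15 (-0.58 ± 0.09, limma adjusted p = 6.5e-05), where OGFR-AS1 overlapped with siLuc (-0.02 ± 0.10, limma adjusted p = 0.85), and in siTIP60 (-1.18 ± 0.09, limma adjusted p = 5.39e-08), where OGFR-AS1 was at -0.25 ± 0.10, limma adjusted p = 0.0423. That last OGFR-AS1 call was lost without siLuc replicate 1 (-0.15, limma adjusted p = 0.26), either siMRGX library or either siTIP60 library.

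In siBRD8 the largest rises were those of FLG-AS1, LINC00520, CFLAR-AS1, LINC00665 and INHBA-AS1, and the largest falls those of HHIP-AS1, A2M-AS1, H1FX-AS1, LINC00173 and RFPL1-AS1. FLG-AS1, antisense to the gene of the epidermal protein filaggrin, read 16.9 and 16.7 CPM in siLuc, 12.4 and 10.8 in siMRG15, 19.05 and 20.8 in siMRGX, 24.3 and 30.8 in siMRGBP, 42.8 and 40.7 in siBRD8 and 32.8 and 29.5 in siTIP60. The siBRD8 libraries were the highest and the siMRG15 libraries the lowest, with 1.26 ± 0.10, limma adjusted p = 6.64e-07 in siBRD8 and -0.50 ± 0.10, limma adjusted p = 0.000873 in siMRG15. H1FX-AS1, at a linker histone gene, went from 1.41 and 1.48 CPM to 0.353 and 0.333 in siBRD8 (-0.86 ± 0.11, limma adjusted p = 2.32e-05) and 0.332 and 0.4005 in siTIP60 (-0.84 ± 0.11, limma adjusted p = 1.04e-05). LINC00665 rose from 17.5 and 23.6 to 36.3 and 35.9 CPM (0.80 ± 0.12, limma adjusted p = 0.000142), and INHBA-AS1, at the gene of an activin subunit, from 0.703 and 0.478 to 2.002 and 1.37 CPM (0.75 ± 0.15, limma adjusted p = 0.000847).

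In siTIP60 the largest rises were those of LINC00520, LINC00565, LINC00452, DLGAP1-AS2 and LINC00460, and the largest falls those of TMPO-AS1, STARD4-AS1, LINC00669, LINC00085 and MCM3AP-AS1. LINC00520 read 1.04 and 1.02 CPM in siLuc, 2.405 and 2.79 in siMRG15, 3.72 and 4.01 in siMRGX, 3.63 and 2.49 in siMRGBP, 3.01 and 3.57 in siBRD8 and 9.26 and 9.64 in siTIP60. Every knockdown library lay above siLuc and the siTIP60 libraries above all others, with a rise of 2.37 ± 0.12, limma adjusted p = 2.08e-09. LINC00565, which RefSeq now calls SWINGN, read 2.92 and 2.100 CPM in siLuc, 1.66 and 1.67 in siMRG15, 1.55 and 1.48 in siMRGX, 3.53 and 4.12 in siMRGBP, 2.92 and 2.91 in siBRD8 and 16.9 and 16.2 in siTIP60. The siTIP60 libraries stood above the other 10, and the rise was 2.33 ± 0.11, limma adjusted p = 7.44e-10.

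DLGAP1-AS2, opposite to the gene of a synaptic scaffold protein, rose from 14.9 and 17.9 to 55.3 and 54.1 CPM (1.68 ± 0.09, limma adjusted p = 1.89e-09) and to 29.2 and 29.4 CPM in siMRGX (0.80 ± 0.09, limma adjusted p = 3.28e-06). TMPO-AS1, which overlaps the gene of the nuclear envelope protein thymopoietin, read 4.66 and 4.41 CPM in siLuc, 6.04 and 5.69 in siMRG15, 2.48 and 2.31 in siMRGX, 2.15 and 2.02 in siMRGBP, 3.87 and 3.94 in siBRD8 and 1.41 and 1.21 in siTIP60. It was lowest in siTIP60 (-1.26 ± 0.08, limma adjusted p = 1.87e-08) and the siMRG15 libraries lay above the other 10 (0.31 ± 0.08, limma adjusted p = 0.0051). MCM3AP-AS1, at the gene of an mRNA export factor, read 6.61 and 6.78 CPM in siLuc, 5.67 and 5.62 in siMRG15, 12.3 and 12.7 in siMRGX, 6.04 and 6.801 in siMRGBP, 6.67 and 6.16 in siBRD8 and 3.08 and 2.98 in siTIP60. The siTIP60 libraries were the lowest (-0.93 ± 0.08, limma adjusted p = 1.99e-07) and the siMRGX libraries the highest (0.81 ± 0.08, limma adjusted p = 1.4e-06). LINC00669 fell from 4.37 and 3.98 to 1.34 and 1.34 CPM (-1.14 ± 0.08, limma adjusted p = 5.12e-08).

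**Figure D2:**
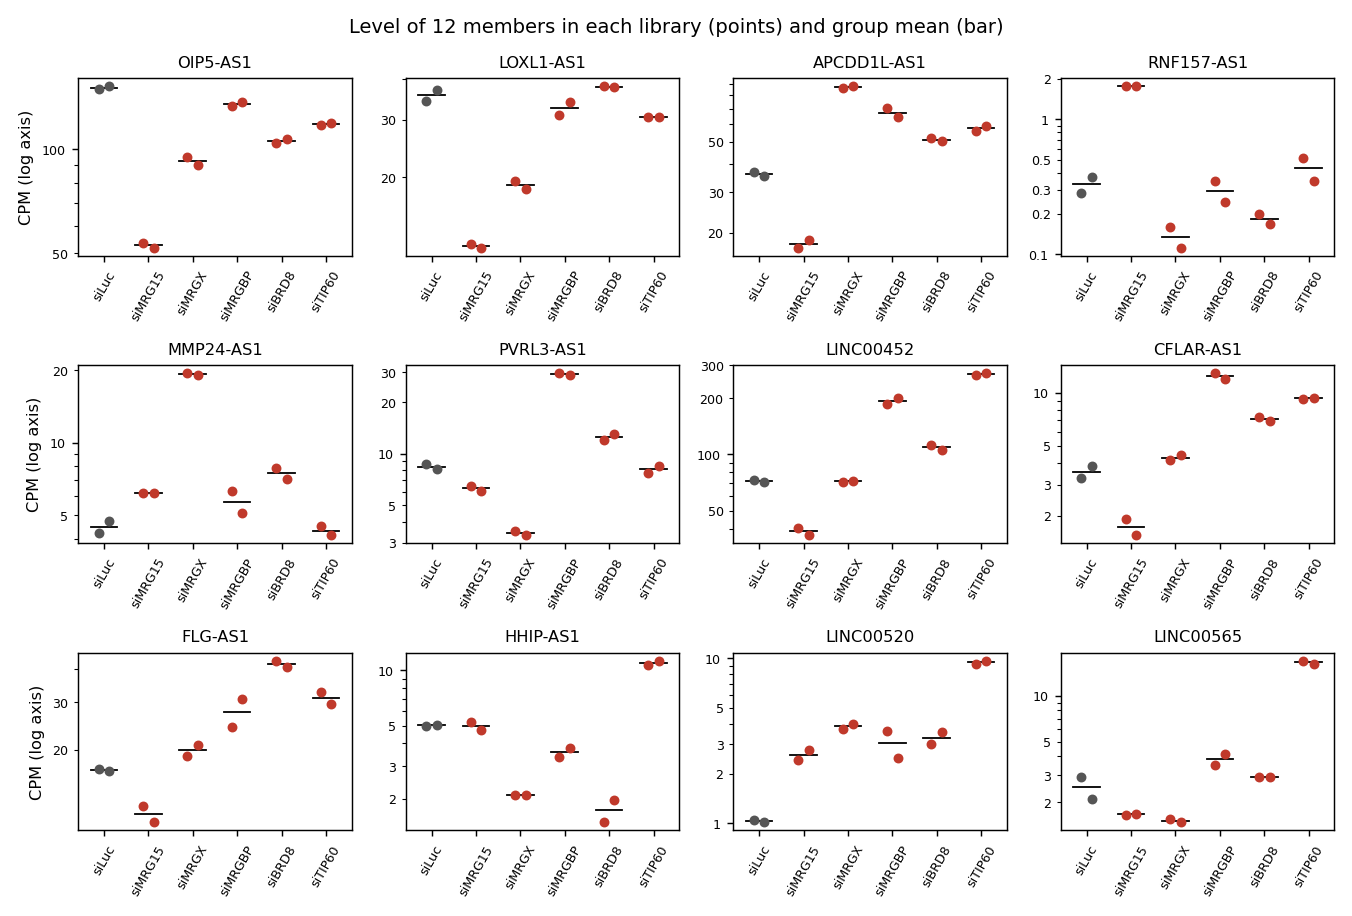
Each panel gives the CPM, on a log axis, of 1 of 12 members in the 2 libraries of each of the 6 groups, with bars for the group means and the siLuc libraries in grey. OIP5-AS1 and LOXL1-AS1 are lowest in siMRG15, MMP24-AS1 is high in siMRGX, PVRL3-AS1 in siMRGBP, FLG-AS1 in siBRD8, and HHIP-AS1, LINC00520 and LINC00565 in siTIP60.

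Transcripts that moved the same way in all 5 knockdowns were few. Of the members 6 rose in every one (3.85%, beside 4.6% of all listed genes) and 8 fell in every one (5.13%, beside 4.69%), both close to the shares of all genes. In addition 70 rose in at least 1 knockdown and fell in another (44.9%, beside 51.3% of all listed genes). The 6 that rose were LINC00226, LINC00265, LINC00508, LINC00520, LINC00680 and NOP14-AS1. The 8 that fell were GNAS-AS1, an imprinted antisense transcript of the GNAS locus, LINC00085, LINC00173, LINC00669, MIR210HG, OIP5-AS1, RFPL1-AS1 and STEAP3-AS1. Since every comparison uses the same siLuc libraries, a member that is high or low in both of them moves the same way in all 5.

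LINC00680 read 6.95 and 5.998 CPM in siLuc, 13.3 and 13.5 in siMRG15, 12.9 and 11.5 in siMRGX, 8.401 and 8.01 in siMRGBP, 8.96 and 9.38 in siBRD8 and 10.7 and 10.5 in siTIP60. All 10 knockdown libraries lay above both siLuc libraries, most of all in siMRG15 (0.95 ± 0.08, limma adjusted p = 4.53e-07). LINC00508 rose from 2.34 and 2.45 CPM to between 3.79 and 3.17 CPM in siMRGX (0.40 ± 0.10, limma adjusted p = 0.00344) and 7.82 and 6.98 CPM in siTIP60 (1.30 ± 0.10, limma adjusted p = 7.8e-08). NOP14-AS1 rose least in siBRD8, from 12.8 and 11.5 to 15.6 and 14.9 CPM, and most in siMRGBP, to 26.2 and 24.3 CPM (1.00 ± 0.07, limma adjusted p = 1.16e-07). LINC00226 rose from 0.521 and 0.583 CPM to 1.53 and 1.55 in siMRG15 (0.71 ± 0.08, limma adjusted p = 6.2e-06).

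RFPL1-AS1 read 1.002 and 0.852 CPM in siLuc, 0.104 and 0.126 in siMRG15, 0.115 and 0.0839 in siMRGX, 0.227 and 0.135 in siMRGBP, 0.109 and 0.137 in siBRD8 and 0.0775 and 0.105 in siTIP60. Its 5 falls ran from -0.71 in siMRGBP to -0.82 in siTIP60, and no knockdown library overlapped with siLuc. At this level the pseudocount compresses the differences: the ratio of mean CPM to siLuc was 0.196 in siMRGBP and 0.0986 in siTIP60. STEAP3-AS1 fell from 1.797 and 2.01 CPM to 0.554 and 0.548 in siTIP60 (-0.90 ± 0.10, limma adjusted p = 2.26e-06) and to 1.05 and 1.196 in siBRD8 (-0.45 ± 0.10, limma adjusted p = 0.00187). LINC00173 fell most in siMRGX, from 2.27 and 2.19 to 0.244 and 0.531 CPM (-1.23 ± 0.10, limma adjusted p = 3.48e-07). GNAS-AS1 fell most in siTIP60, from 5.86 and 5.89 to 2.62 and 2.63 CPM (-0.92 ± 0.08, limma adjusted p = 3.52e-07).

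For 6 of these 14 members a call was lost when 1 library was left out. The siMRG15 call of LINC00085 was lost without any of 9 libraries (every one but siMRG15 replicate 1 and both of siMRGBP), at -0.18 without siMRG15 replicate 2 (limma adjusted p = 0.29), and its siMRGX call was lost without siMRGX replicate 2, at -0.32 (limma adjusted p = 0.081). The siMRG15 call of LINC00173 was lost without siLuc replicate 1 (-0.28, limma adjusted p = 0.0672) or siMRG15 replicate 2 (-0.23, limma adjusted p = 0.14). That of GNAS-AS1 was lost without either siLuc or either siMRG15 library, with limma adjusted p from 0.0713 to 0.10. In siMRGBP the call of OIP5-AS1 ended when siLuc replicate 2 was dropped, at -0.14 (limma adjusted p = 0.071), and also when siMRGBP replicate 1 was (limma adjusted p = 0.0704). The call of LINC00680 there ended at 0.21 with siLuc replicate 2 dropped (limma adjusted p = 0.0551). In siBRD8, LINC00226 lost its call without siLuc replicate 1 or either siBRD8 library, with limma adjusted p from 0.0524 to 0.11.

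The promoter window of LINC00265 is shown because it holds a motif that few windows hold. It read 7.49 and 7.12 CPM in siLuc, 13.9 and 14.6 in siMRG15, 9.502 and 9.89 in siMRGX, 9.27 and 11.1 in siMRGBP, 9.63 and 10.1 in siBRD8 and 18.8 and 18.03 in siTIP60. All 10 knockdown libraries lay above siLuc, with 1.23 ± 0.08, limma adjusted p = 2.3e-08 in siTIP60 and 0.88 ± 0.08, limma adjusted p = 1.01e-06 in siMRG15. Its window in RefSeq (GRCh38.p14), chr7:39733318-39733617 on the plus strand, runs from 250 bases before the gene's start to 50 bases after it and is printed below with the palindrome TGACGTCA, the cAMP response element, in capitals, 198 bases before the start.
LINC00265: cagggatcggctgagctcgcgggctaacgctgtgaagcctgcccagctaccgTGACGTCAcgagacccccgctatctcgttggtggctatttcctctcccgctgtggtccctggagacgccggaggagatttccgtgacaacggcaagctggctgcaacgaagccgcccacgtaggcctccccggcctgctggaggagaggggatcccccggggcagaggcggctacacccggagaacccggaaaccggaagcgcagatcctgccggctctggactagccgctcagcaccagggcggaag

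The motif TGACGTCA was found in 1.85% of 35116 windows of this length and in 4 of the 101 members with a window (3.96%). Searched on both strands in the same windows, the TATA box TATAAA was in 11.5% of all and 4.95% of members, CCAAT in 34.6% and 38.6%, the E-box CACGTG in 7.26% and 6.93%, the GC box GGGCGG in 45.0% and 47.5%, and the AP-1 site TGACTCA in 4.95% of both. No motif searched contains another, and a match is a description of the window.

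Each knockdown was next set against the mean of the other 4, a comparison that does not use the siLuc libraries. In siTIP60, 81 members were higher than the mean of the other knockdowns (43.9% of all listed genes were) and 45 lower (36.4% of all). In siMRG15, 64 were higher (39.7% of all) and 55 lower (37.5% of all). In siMRGX, 31 were higher (31.5% of all) and 83 lower (46.8% of all). In siMRGBP, 34 were higher (34.6% of all) and 63 lower (34.1% of all), and in siBRD8 34 were higher (32.9% of all) and 51 lower (27.2% of all). As shares of the 156 members these are 51.9% and 28.8%, 41.0% and 35.3%, 19.9% and 53.2%, 21.8% and 40.4%, and 21.8% and 32.7%. Without siMRGBP replicate 1 the 63 became 37, and without siBRD8 replicate 1 or 2 the 34 became 20 or 19 and the 51 became 28 or 31. Median-of-ratios factors, which moved the median of all genes by 0.11 in this comparison, made the siMRGX counts 43 and 72.

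The members furthest above the mean of the other knockdowns were RNF157-AS1, TMPO-AS1 and SOS1-IT1 in siMRG15, MMP24-AS1, ZNFX1-AS1 and MCM3AP-AS1 in siMRGX, PVRL3-AS1, LINC00639 and CFLAR-AS1 in siMRGBP, FLG-AS1, LOXL1-AS1 and FOXN3-AS1 in siBRD8, and LINC00565, LINC00326 and HHIP-AS1 in siTIP60. TMPO-AS1 was 1.06 ± 0.07, limma adjusted p = 1.19e-08 in siMRG15, and LOXL1-AS1 was 0.76 ± 0.05, limma adjusted p = 1.39e-07 in siBRD8. LINC00326 had few reads outside siTIP60. It read 0.0781 and 0.257 CPM in siLuc, 0.0891 and 0.0316 in siMRG15, 0.115 and 0.01399 in siMRGX, 0.0524 and 0.0542 in siMRGBP, 0.0543 and 0.0784 in siBRD8 and 2.37 and 2.29 in siTIP60, which is 214 and 217 reads in siTIP60 and 1 to 22 reads in the other 10 libraries. The siTIP60 libraries stood far above the rest, with 1.65 ± 0.07, limma adjusted p = 3.34e-10 against the other knockdowns and 1.52 ± 0.09, limma adjusted p = 7.89e-09 against siLuc. LINC00402, named after its values were seen, had a like pattern. It had 206 and 228 reads in siTIP60 and 1 to 22 in the other 10 libraries (1.54 ± 0.09, limma adjusted p = 4.64e-09 against siLuc). LINC00326 and LINC00402 passed against siLuc in siTIP60 alone. They may be listed because of that group, so these p-values are no independent support.

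Those furthest below the mean of the others were LINC00460 (-1.87 ± 0.09, limma adjusted p = 8.95e-10), LINC00452 (-1.85 ± 0.05, limma adjusted p = 1.53e-11) and APCDD1L-AS1 (-1.80 ± 0.05, limma adjusted p = 1.94e-11) in siMRG15. In siMRGX they were LINC00639 (-1.54 ± 0.08, limma adjusted p = 5.53e-09), PVRL3-AS1 (-1.53 ± 0.06, limma adjusted p = 4.71e-10) and LINC00668 (-1.12 ± 0.08, limma adjusted p = 6.98e-08), the last at 4.26 and 3.34 CPM in siMRGX and 10.8 and 12.6 CPM in siMRGBP. In siMRGBP they were C17orf76-AS1 (-0.71), RHPN1-AS1 (-0.71) and LINC00221 (-0.68), in siBRD8 HHIP-AS1 (-1.05), MCF2L-AS1 (-0.62) and TRAPPC12-AS1 (-0.61), and in siTIP60 MCM3AP-AS1 (-1.05), MIR17HG (-1.01) and ZNFX1-AS1 (-0.93).

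The siRNAs against the paralogs MRG15 and MRGX gave different noncoding profiles when set against each other. In siMRG15, 71 members were higher than in siMRGX (45.5%, beside 40.8% of all listed genes) and 37 lower (23.7%, beside 33.6%), with a median difference of 0.18 for the members and 0.06 for all genes. RNF157-AS1 (1.28 ± 0.09, limma adjusted p = 2.92e-08), SOS1-IT1 (1.18 ± 0.11, limma adjusted p = 4.92e-07) and HOXA-AS2 (1.17 ± 0.09, limma adjusted p = 9.77e-08) were furthest on the siMRG15 side. HOXA-AS2, from the HOXA cluster of homeobox genes, read 1.198 and 1.13 CPM in siLuc, 1.96 and 1.601 in siMRG15, 0.215 and 0.252 in siMRGX, 0.576 and 0.528 in siMRGBP, 0.525 and 0.539 in siBRD8 and 0.7199 and 0.927 in siTIP60. Its siMRG15 libraries were the highest and its siMRGX libraries the lowest of the 12. On the siMRGX side stood APCDD1L-AS1 (-2.23 ± 0.06, limma adjusted p = 5.84e-11), MMP24-AS1 (-1.50 ± 0.10, limma adjusted p = 1.6e-08) and LINC00263 (-1.16 ± 0.11, limma adjusted p = 4.26e-07), the last at 9.06 and 9.39 CPM in siMRG15 and 22.2 and 21.6 CPM in siMRGX.

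Members named after another gene could be set beside that gene in 52 of 101 cases, the other named genes not being in the table. In RefSeq 41 of these pairs overlap, 10 do not and 1 could not be placed. For 12 pairs the starts are known to lie within 1000 bases of each other. The distance is not known for 17 overlapping pairs, for 2 that do not overlap and for the pair not placed. Over all 52 pairs, member and named gene moved the same way more often than in opposite ways: both passed in 22 pairs in siMRG15, of which 17 in the same direction, in 24 in siMRGX with 19, in 18 in siMRGBP with 15, in 17 in siBRD8 with 14, and in 37 in siTIP60 with 29. Across the 52 pairs Pearson's r of the differences was 0.41, 0.40, 0.38, 0.54 and 0.53 in that order, as a description, since the points share their libraries and overlapping pairs may share reads. The 12 pairs with starts within 1000 bases did not follow this in every knockdown: 3 moved the same way and 4 in opposite ways in siMRG15, 3 and 1 in siMRGX, 3 and 1 in siMRGBP, 4 and 0 in siBRD8, and 6 and 3 in siTIP60, and in siMRGBP r over these 12 was -0.01. Over the 10 pairs that do not overlap, both passed in 6, 7, 5, 2 and 9 pairs. Of these 4, 5, 4, 2 and 7 moved in the same direction. No rate for other pairs of genes was set beside these counts, and 78.8% of all members passed in siTIP60.

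**Figure D3:**
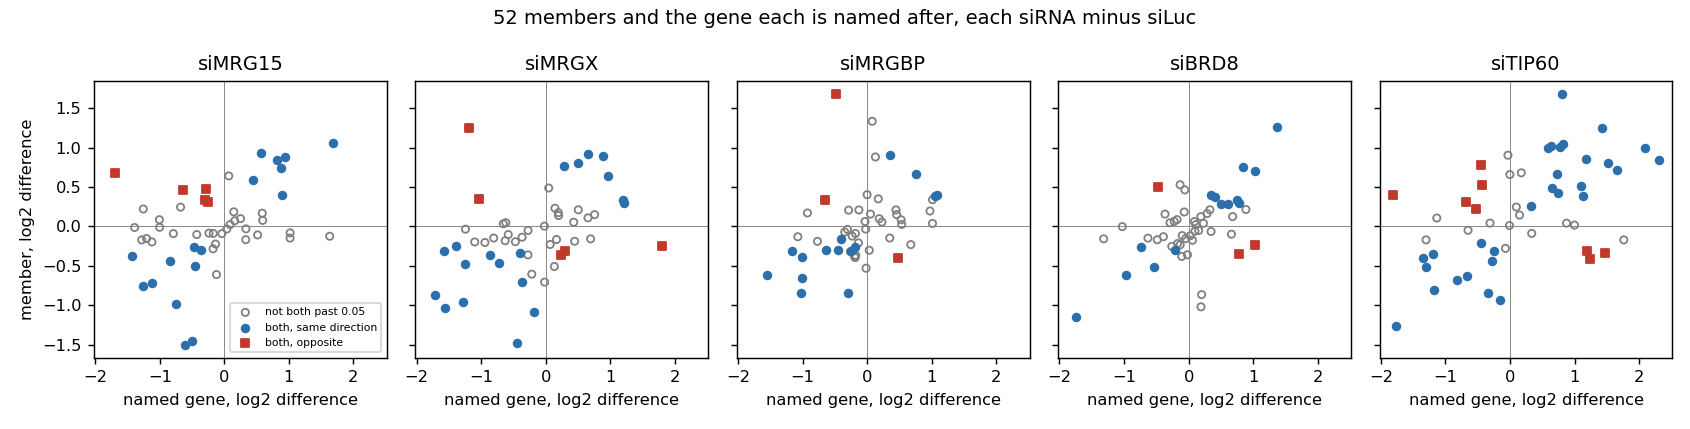
Each point is 1 of the 52 pairs; the horizontal axis gives the log2 difference from siLuc of the gene a member is named after and the vertical axis that of the member, in 1 panel per siRNA. Blue points, where both passed in the same direction (17, 19, 15, 14 and 29 from left to right), outnumber red squares, where both passed in opposite directions (5, 5, 3, 3 and 8).

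HHIP-AS1 and HHIP, the gene of a protein that binds and restrains Hedgehog ligands, start 137 bases apart on opposite strands and do not overlap. HHIP-AS1 read 4.99 and 5.04 CPM in siLuc, 5.196 and 4.73 in siMRG15, 2.096 and 2.098 in siMRGX, 3.39 and 3.79 in siMRGBP, 1.49 and 1.98 in siBRD8 and 10.7 and 11.3 in siTIP60. HHIP read 18.8 and 21.2 CPM in siLuc, 7.07 and 6.93 in siMRG15, 8.24 and 7.08 in siMRGX, 8.65 and 10.1 in siMRGBP, 4.93 and 5.55 in siBRD8 and 87.4 and 88.7 in siTIP60. For both, siTIP60 was the highest group and siBRD8 the lowest, with 0.99 ± 0.10, limma adjusted p = 7.96e-07 for HHIP-AS1 and 2.09 ± 0.10, limma adjusted p = 6.69e-10 for HHIP in siTIP60. In siBRD8 the differences were -1.14 ± 0.10, limma adjusted p = 8.53e-07 for HHIP-AS1 and -1.75 ± 0.10, limma adjusted p = 2.54e-08 for HHIP. They parted in siMRG15, where HHIP fell by -1.39 ± 0.10, limma adjusted p = 5.28e-08 and HHIP-AS1 did not pass (-0.01 ± 0.10, limma adjusted p = 0.91). The promoter window of HHIP-AS1 is shown because the windows of the pair share 236 of 300 bases, so that the sequence belongs to both genes. It is chr4:144645970-144646269 on the minus strand (RefSeq, GRCh38.p14), with TGACGTCA in capitals, 69 bases before the HHIP-AS1 start.
HHIP-AS1: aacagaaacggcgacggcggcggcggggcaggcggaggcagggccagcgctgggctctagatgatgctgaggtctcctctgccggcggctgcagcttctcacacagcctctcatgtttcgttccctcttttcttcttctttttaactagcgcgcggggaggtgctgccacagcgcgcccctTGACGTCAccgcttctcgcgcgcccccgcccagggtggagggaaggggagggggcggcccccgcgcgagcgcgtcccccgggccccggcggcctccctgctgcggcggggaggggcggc

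OIP5-AS1 and OIP5, the gene of a centromere protein, overlap on opposite strands and both fell in all 5 knockdowns. They differed in where the fall was deepest: OIP5-AS1 in siMRG15 (-1.50, OIP5 -0.61) and OIP5 in siTIP60 (-1.20 ± 0.14, limma adjusted p = 4.57e-06, OIP5-AS1 -0.35). FLG-AS1 and FLG moved side by side, with 1.26 and 1.37 in siBRD8 and 0.85 and 1.17 in siTIP60. TMPO-AS1 and TMPO fell together in siTIP60 (-1.26 and -1.77 ± 0.06, limma adjusted p = 1.02e-10), while in siMRGX TMPO-AS1 fell (-0.71) and TMPO did not pass (-0.02 ± 0.06, limma adjusted p = 0.83). RNF157 rose with RNF157-AS1 in siMRG15 (1.68 ± 0.11, limma adjusted p = 3.64e-08), and in siTIP60 it fell (-1.13 ± 0.11, limma adjusted p = 7.32e-07) while RNF157-AS1 did not pass (0.11).

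Other pairs moved apart. In siMRGX APCDD1L-AS1 rose (1.25) and APCDD1L fell (-1.19 ± 0.09, limma adjusted p = 1.81e-07), and both fell in siMRG15 (-0.98 and -0.76). In siMRGBP PVRL3-AS1 rose (1.68) while PVRL3 fell (-0.48 ± 0.06, limma adjusted p = 2.61e-05), and the pair does not overlap. MCF2L-AS1 rose in siMRGBP (1.33) where MCF2L did not pass (0.08 ± 0.09, limma adjusted p = 0.49), and MCF2L fell in siBRD8 (-1.03 ± 0.09, limma adjusted p = 1.61e-06) where MCF2L-AS1 did not pass (-0.0022). HS1BP3-IT1 rose in siTIP60 (0.99 ± 0.08, limma adjusted p = 1.19e-07) and HS1BP3 in siMRG15 (1.02 ± 0.08, limma adjusted p = 1.11e-07). DLGAP1 rose in all 5 knockdowns, from 0.51 in siMRGX to 0.89 in siBRD8, whereas DLGAP1-AS2 passed in siMRGX and siTIP60 alone. LOXL1 fell most in siMRGX (-1.72 ± 0.07, limma adjusted p = 7.77e-10) and LOXL1-AS1 in siMRG15 (-1.45). PRKAR2A-AS1, named here after its values were seen, passed in the opposite direction to PRKAR2A, the gene of a protein kinase A subunit, in 3 knockdowns: -1.69 for PRKAR2A and 0.67 for PRKAR2A-AS1 in siMRG15, 0.30 and -0.32 in siMRGX, and -1.81 and 0.40 in siTIP60.

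The 4 HG members are the spliced, polyadenylated transcripts of microRNA host genes, and their levels are not those of the mature microRNAs, which were not measured. The mature sequences below, from RefSeq (GRCh38.p14), lie inside the spans of these hosts and are shown 5′ to 3′ with the seed, bases 2 to 8, in capitals. In MIR17HG, the host of a cluster known as an oncogene and a target of MYC, miR-17-5p and miR-20a-5p share a seed, miR-19a-3p and miR-19b-3p share another, and miR-18a-5p differs from the first pair within the seed.
hsa-miR-17-5p: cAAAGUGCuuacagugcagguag
hsa-miR-20a-5p: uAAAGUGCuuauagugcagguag
hsa-miR-18a-5p: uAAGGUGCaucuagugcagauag
hsa-miR-19a-3p: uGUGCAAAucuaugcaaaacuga
hsa-miR-19b-3p: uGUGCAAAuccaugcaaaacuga
hsa-miR-92a-3p: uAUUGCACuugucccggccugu
hsa-miR-210-3p: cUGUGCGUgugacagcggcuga
hsa-miR-22-3p: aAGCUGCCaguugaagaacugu
hsa-let-7d-5p: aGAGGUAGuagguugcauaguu

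MIR17HG read 3.28 and 2.63 CPM in siLuc, 3.58 and 3.57 in siMRG15, 5.14 and 4.21 in siMRGX, 2.81 and 2.899 in siMRGBP, 3.12 and 3.34 in siBRD8 and 1.34 and 1.16 in siTIP60. The siMRGX libraries were the highest (0.52 ± 0.11, limma adjusted p = 0.000705) and the siTIP60 libraries the lowest (-0.81 ± 0.11, limma adjusted p = 1.18e-05), and siMRGBP and siBRD8 overlapped with siLuc. MIR210HG, the host of a microRNA known for its induction under low oxygen, read 1.11 and 0.898 CPM in siLuc, 0.534 and 0.4002 in siMRG15, 0.273 and 0.364 in siMRGX, 0.541 and 0.501 in siMRGBP, 0.571 and 0.4803 in siBRD8 and 0.487 and 0.559 in siTIP60. All 10 knockdown libraries lay below both siLuc libraries, with falls from -0.60 ± 0.09, limma adjusted p = 5.75e-05 in siMRGX to -0.39 ± 0.09, limma adjusted p = 0.00133 in siTIP60.

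MIR22HG read 12.3 and 10.5 CPM in siLuc, 7.21 and 6.33 in siMRG15, 12.8 and 12.1 in siMRGX, 9.31 and 9.96 in siMRGBP, 9.47 and 9.62 in siBRD8 and 16.4 and 15.8 in siTIP60. It was lowest in siMRG15 (-0.67 ± 0.09, limma adjusted p = 1.57e-05) and highest in siTIP60 (0.47 ± 0.09, limma adjusted p = 0.000269). Its small falls in siMRGBP (-0.22) and siBRD8 (-0.23) passed, but the first was lost without any 1 of 8 libraries and the second without any 1 of 7. The smallest values came without siLuc replicate 1, at -0.12 in siMRGBP (limma adjusted p = 0.29) and -0.13 in siBRD8 (limma adjusted p = 0.26). The 7 were siLuc replicate 1 and both libraries of siMRGX, siBRD8 and siTIP60, to which siMRGBP replicate 1 was added for the siMRGBP call. MIRLET7DHG, a host of let-7d, which belongs to a family of microRNAs that restrain growth genes, read 2.64 and 2.45 CPM in siLuc, 2.82 and 2.58 in siMRG15, 2.47 and 1.97 in siMRGX, 1.01 and 1.35 in siMRGBP, 1.88 and 2.01 in siBRD8 and 1.14 and 1.11 in siTIP60. It fell in siMRGBP (-0.70 ± 0.10, limma adjusted p = 6.15e-05) and siTIP60 (-0.74 ± 0.10, limma adjusted p = 2.28e-05), overlapped with siLuc in siMRG15 and siMRGX, and its call in siBRD8 (-0.27 ± 0.10, limma adjusted p = 0.0437) was lost without any 1 library of siLuc, siMRG15, siBRD8 or siTIP60, at -0.24 without siBRD8 replicate 1 (limma adjusted p = 0.18).

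**Figure D4:**
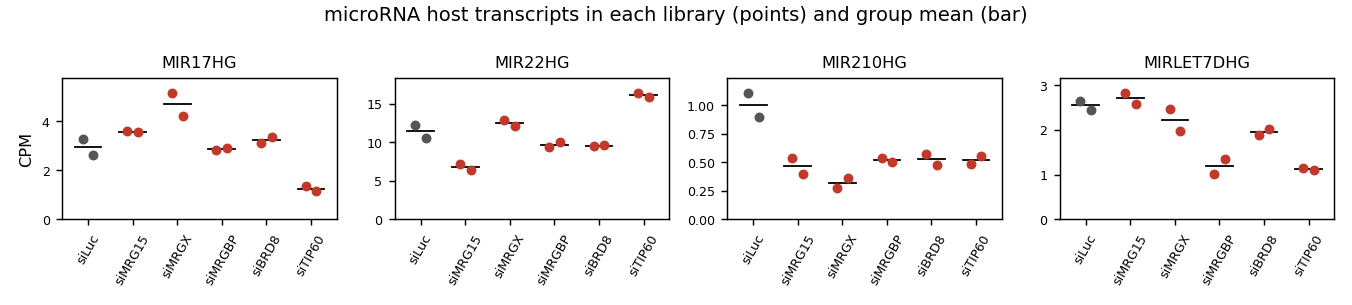
The 4 panels give the CPM of each microRNA host transcript in the 2 libraries of each group, on linear axes that start at 0, with bars for the group means. MIR17HG is lowest and MIR22HG highest in siTIP60, and MIR210HG is lower in all 10 knockdown libraries than in siLuc.

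Of 13 genes of microRNA processing and action 4 are in the table: XPO5, which exports precursors from the nucleus, the Argonaute genes EIF2C2 (AGO2) and EIF2C4 (AGO4), and TNRC6C, which recruits deadenylases. All 4 rose in siMRGX, and 3 rose in each of the other knockdowns. Of all listed genes 28.2% rose in siMRGX, 33.5% in siMRG15, 32.1% in siMRGBP, 28.3% in siBRD8 and 41.1% in siTIP60. EIF2C4 rose in every knockdown, from 0.71 ± 0.07, limma adjusted p = 4.16e-06 in siBRD8 to 1.36 ± 0.07, limma adjusted p = 6.84e-09 in siMRGX. XPO5 rose in siMRGX (0.76 ± 0.07, limma adjusted p = 4.21e-07) and fell in siTIP60 (-0.32 ± 0.07, limma adjusted p = 0.000644), and TNRC6C fell in siMRGBP (-0.59 ± 0.08, limma adjusted p = 5.1e-05). The median of the 4 was 0.65, 0.71, 0.40, 0.39 and 0.82 in siMRG15, siMRGX, siMRGBP, siBRD8 and siTIP60, beside the medians of all genes given above.

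The hosts of small nucleolar RNAs (snoRNAs), which guide the modification of ribosomal RNA, rose in siMRGX and fell in siTIP60 with few exceptions. Members of this kind are ZNFX1-AS1 (now ZFAS1), C17orf76-AS1 (now SNHG29) and EPB41L4A-AS1. ZNFX1-AS1 read 37.9 and 38.04 CPM in siLuc, 34.5 and 36.9 in siMRG15, 75.4 and 70.4 in siMRGX, 33.1 and 30.1 in siMRGBP, 37.8 and 35.02 in siBRD8 and 21.8 and 20.9 in siTIP60. Both siMRGX libraries lay far above the others (0.92 ± 0.07, limma adjusted p = 1.35e-07) and both siTIP60 libraries below them (-0.80 ± 0.07, limma adjusted p = 2.69e-07). C17orf76-AS1 read 136 and 108 CPM in siLuc, 148 and 143 in siMRG15, 183 and 198 in siMRGX, 87.1 and 89.6 in siMRGBP, 142 and 150.1 in siBRD8 and 124 and 96.1 in siTIP60. It rose in siMRGX (0.65 ± 0.12, limma adjusted p = 0.000271) and fell in siMRGBP (-0.45 ± 0.12, limma adjusted p = 0.00444), and in siTIP60 its libraries lay apart and overlapped with siLuc (-0.14 ± 0.12, limma adjusted p = 0.27). EPB41L4A-AS1 read 3.75 and 4.11 CPM in siLuc, 6.13 and 5.43 in siMRG15, 9.57 and 8.98 in siMRGX, 3.301 and 3.12 in siMRGBP, 4.24 and 4.26 in siBRD8 and 2.82 and 2.55 in siTIP60. It rose in siMRGX (1.06 ± 0.09, limma adjusted p = 2.56e-07) and siMRG15 (0.46 ± 0.09, limma adjusted p = 0.000402) and fell in siTIP60 (-0.42 ± 0.09, limma adjusted p = 0.000652), and its small fall in siMRGBP (-0.23) was lost without siLuc replicate 2 (-0.17, limma adjusted p = 0.16), siMRGBP replicate 2 (-0.20, limma adjusted p = 0.12) or either siBRD8 library (limma adjusted p = 0.0513 and 0.0514).

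The small nucleolar host genes that carry other names, a list of 20 with 10 in the table, mostly rose in siMRGX and fell in siTIP60. In siMRGX 8 rose and 1 fell (28.2% and 40.0% of all listed genes), with a median of 0.69. In siTIP60 all 10 measured fell (37.7% of all), with a median of -0.81. In siMRGBP none rose and 8 fell (32.9% of all), with a median of -0.45. In siMRG15 1 rose and 5 fell (33.5% and 35.8% of all, median -0.24), and in siBRD8 2 rose and 2 fell (28.3% and 25.9% of all, median 0.01). GAS5 read 66.6 and 65.3 CPM in siLuc, 73.04 and 72.7 in siMRG15, 121 and 123 in siMRGX, 42.8 and 44.2 in siMRGBP, 66.6 and 66.4 in siBRD8 and 41.8 and 37.5 in siTIP60, with 0.88 ± 0.06, limma adjusted p = 6.27e-08 in siMRGX and -0.72 ± 0.06, limma adjusted p = 2.05e-07 in siTIP60. SNHG7 rose most in siMRGX (1.29 ± 0.07, limma adjusted p = 6.22e-09) and SNHG1 fell most in siTIP60 (-1.51 ± 0.08, limma adjusted p = 4.28e-09). SNHG14 did not pass in siMRGX (-0.06 ± 0.07, limma adjusted p = 0.46) and fell in siTIP60 (-1.04 ± 0.07, limma adjusted p = 3.05e-08), and DANCR, named after its values were seen, was the one that fell in siMRGX (-0.35).

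**Figure D5:**
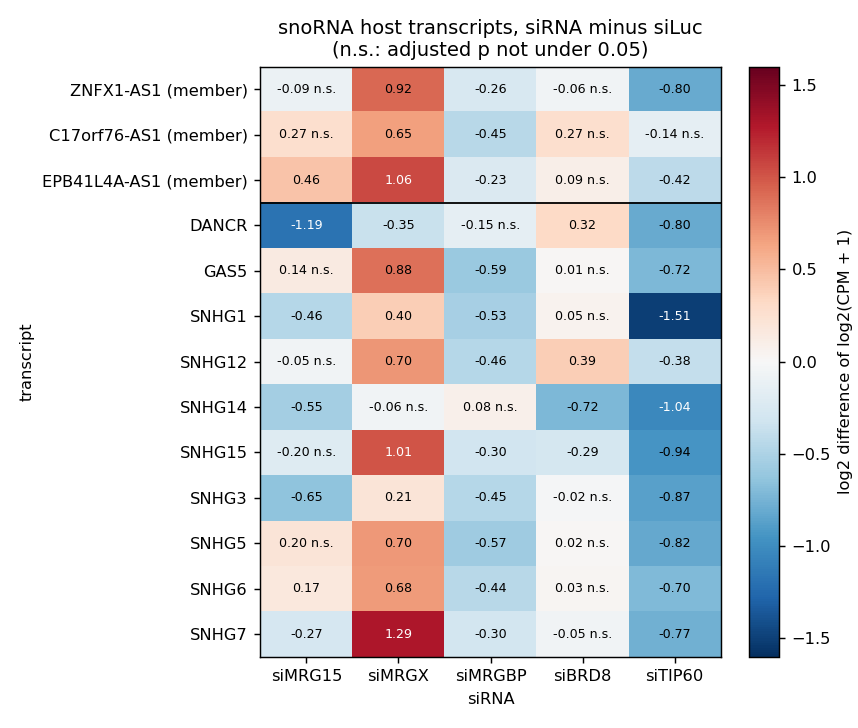
Rows are the 3 snoRNA host transcripts among the members, above the line, and the 10 measured transcripts of the small nucleolar host list, and columns are the 5 siRNAs; colour and number give the log2 difference from siLuc, and n.s. marks an adjusted p that is not under 0.05. The siMRGX column is mostly red and the siTIP60 column blue, with DANCR and SNHG14 apart in siMRGX.

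Spliced snoRNA hosts such as GAS5 and ZFAS1 are known as substrates of nonsense-mediated decay, the pathway that removes transcripts with early stop codons. Among the genes of that pathway in the table, SMG5, which helps to recruit decay enzymes, rose in siMRGX (1.44 ± 0.06, limma adjusted p = 1.15e-09), as did the helicase UPF1 (1.29 ± 0.08, limma adjusted p = 1.84e-08), SMG9 (0.97 ± 0.09, limma adjusted p = 6.45e-07) and UPF3B (0.79 ± 0.11, limma adjusted p = 2.73e-05), the last named after its values were seen. In siTIP60, SMG5 (-0.23 ± 0.06, limma adjusted p = 0.00371), SMG9 (-0.24 ± 0.09, limma adjusted p = 0.0251) and UPF3B (-0.26 ± 0.11, limma adjusted p = 0.041) fell, and UPF1 did not pass (0.13 ± 0.08, limma adjusted p = 0.13). These are not all the measured genes of the list, and no count over it is given. Their part in the levels of the hosts was not tested. Of 22 genes of the nuclear exosome, which degrades many noncoding transcripts, 7 are in the table. In siTIP60 1 rose and 5 fell (41.1% and 37.7% of all listed genes), and in siMRGX 3 rose and 3 fell (28.2% and 40.0% of all). RBM7, of a targeting complex of the exosome, fell in siMRGX (-1.64 ± 0.08, limma adjusted p = 4.14e-09) and siTIP60 (-0.93 ± 0.08, limma adjusted p = 2.63e-07), PABPN1, the nuclear poly(A)-binding protein, fell in siTIP60 (-1.12 ± 0.07, limma adjusted p = 6.4e-09), ZCCHC7 rose in siMRGX (0.78 ± 0.07, limma adjusted p = 3.98e-07), and PAPD7 rose in siBRD8 (0.81 ± 0.09, limma adjusted p = 5.78e-06).

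Of 46 long noncoding RNAs with names of other kinds 13 are in the table, and more fell than rose in each knockdown: 3 rose and 6 fell in siMRG15, 3 and 8 in siMRGX, 3 and 9 in siMRGBP, 2 and 6 in siBRD8, and 3 and 5 in siTIP60. Of all listed genes 33.5% rose and 35.8% fell in siMRG15, 28.2% and 40.0% in siMRGX, and 32.1% and 32.9% in siMRGBP. In siBRD8 these shares were 28.3% and 25.9%, and in siTIP60 41.1% and 37.7%. Falls thus outnumbered rises over all listed genes too in siMRG15, siMRGX and siMRGBP. DLEU2, a host of miR-15a and miR-16-1, fell in all 5, most in siTIP60, from 7.13 and 8.42 to 1.43 and 1.34 CPM (-1.88 ± 0.09, limma adjusted p = 1.13e-09). TUG1 read 193 and 213 CPM in siLuc, 395 and 390.1 in siMRG15, 482 and 479 in siMRGX, 124 and 151 in siMRGBP, 357 and 362 in siBRD8 and 199 and 212 in siTIP60. It rose in siMRGX (1.24 ± 0.09, limma adjusted p = 5.7e-08), siMRG15 (0.95 ± 0.09, limma adjusted p = 6.49e-07) and siBRD8 (0.83 ± 0.09, limma adjusted p = 4.93e-06) and fell in siMRGBP (-0.56 ± 0.09, limma adjusted p = 8.88e-05). JPX, from the X-inactivation centre, rose in siMRGX (1.25 ± 0.09, limma adjusted p = 7.88e-08), and UCA1 rose in siTIP60 (1.36 ± 0.11, limma adjusted p = 1.54e-07) and fell in siMRG15 (-0.81 ± 0.11, limma adjusted p = 3.08e-05), as LINC00460 and LINC00452 did.

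The authors' own lists held members at about the share that members have of the CPM table, which is 1.77%. In the authors' deposited table of genes lower after BRD8 and MRGBP knockdown 4 of 218 names were members (1.83%), among them A2M-AS1, DBH-AS1 and LINC00481. In the authors' deposited table of genes higher after both, 4 of 215 were members (1.86%), namely FOXN3-AS1, KCNQ5-IT1, LINC00665 and PVRL3-AS1. A2M-AS1 did not pass in siMRGBP here (-0.38 ± 0.16, limma adjusted p = 0.0572). DBH-AS1 passed in siTIP60 alone, where it rose, and so in neither siBRD8 nor siMRGBP. KCNQ5-IT1 rose in only 1 knockdown, and so not in both. FOXN3-AS1 rose in both (0.70 ± 0.09, limma adjusted p = 3.04e-05 in siBRD8 and 0.40 ± 0.09, limma adjusted p = 0.00161 in siMRGBP). In the authors' deposited table of transcript marks 7 of 25895 transcripts belong to 4 members. Of them 5, from LINC00475, LINC00634 and LINC00680, are marked as up in siTIP60, as are 5203 of the 25895. LINC00475 is also marked as up in siBRD8, siMRG15 and siMRGBP, and LINC00680 in siMRG15 and siMRGX. LINC00505 is marked as down in siMRG15 and siMRGX.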

How the data were processed

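Polyadenylated RNA of 12 U2OS libraries, 2 per siRNA, was analysed, grouped by the siRNA in the labels. The 4 chromatin immunoprecipitation samples were not analysed here. The authors deposited one CPM value for every gene in every library, in a sheet named for significant genes. Tools named by the submitters' processing notes include minimap2 2.17-r941 and Subread 2.0.0 (featureCounts), with build hg19. How strand was used, how genes were selected and how library size was scaled is not given in the sources used here. Of 8813 rows 5 repeats were removed. Gene names were matched to RefSeq on GRCh38.p14, a different build, so no coordinates are given beyond sequence windows read from RefSeq. The authors also deposited lists of gene names and a table of marks of 0 or 1 per transcript, used as listed.

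All CPM values (100%) were whole multiples of 1 read (tolerance 0.01 reads), which gave library sizes of 57255783 to 110402095 reads and counts for an alternative. For siBRD8 replicate 1 and both siTIP60 libraries the step was taken from differences between neighbouring values. Since CPM is no count, the test was limma 3.58.1 with an intensity trend (R 4.3.3) on log2(CPM + 1), 6 group means over 12 libraries, 6 residual degrees of freedom, no replicate block and no further filter. The p-values were two-sided, with Benjamini-Hochberg adjustment across 8808 genes in each comparison and a threshold of 0.05. Each knockdown was compared with siLuc and with the mean of the other 4, and siMRG15 with siMRGX. With a library left out, the lone one of its group was assumed to vary like the other groups. Alternatives were pseudocounts of 0.1 and 5, means of at least 1 or 5 CPM, TMM and median-of-ratios factors, a replicate block, edgeR 4.0.16 on the recovered reads, fits of the compared groups alone, and each library left out. The fit was tested on simulated data.

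Members and lists were chosen with earlier results of these data known. Named were the 5 largest changes each way per knockdown among members past the threshold whose libraries lay apart from siLuc, members moving one way in all 5, the HG members, the 3 largest differences each way against the other knockdowns and between siMRG15 and siMRGX, the 8 pairs with the smallest adjusted p, the 3 members with the most reads, up to 4 genes per other list, and the targets. PRKAR2A-AS1, LINC00402, DANCR and UPF3B, the partner genes of the pairs, and the members in the authors' lists were named after values were seen. Some results on the decay list are not reported here.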

Additional observations from a re-analysis of the deposited data

How the results depend on the processing

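For the 56 named members against siLuc, 215 of 280 differences passed, 32 of these calls were lost under at least 1 alternative, and no direction was reversed in a called value. Requiring a mean of at least 5 CPM, which leaves 35 members, gave risen and fallen counts against siLuc of 8 and 16 in siMRG15, 17 and 13 in siMRGX, 16 and 12 in siMRGBP, 15 and 6 in siBRD8 and 19 and 10 in siTIP60. Against the mean of the other knockdowns these were 9 and 22, 15 and 16, 16 and 13, 9 and 7, and 21 and 11, and 11 and 21 for siMRG15 against siMRGX. Requiring at least 1 CPM lowered the fallen counts to 32 in siMRGBP, 22 in siBRD8 and 29 in siTIP60, and against the other knockdowns the higher count in siMRG15 to 41 and the lower counts to 40 in siMRGBP and 28 in siBRD8. These filters test fewer genes, and the shares of all genes under them are not given here. In the main fit 22.9% of the members at 5 CPM or more rose in siMRG15, 42.9% in siMRGX, 45.7% in siMRGBP, 40% in siBRD8 and 51.4% in siTIP60. Of the members under 1 CPM the shares were 30.6%, 8.16%, 10.2%, 8.16% and 38.8% in that order. The shares that fell were 45.7%, 37.1%, 34.3%, 17.1% and 28.6% at 5 CPM or more. Under 1 CPM 14.3%, 32.7%, 36.7%, 24.5% and 34.7% fell. The shares of all listed genes at these levels are not given here, so these shares are no result about the members. Fitting the compared groups alone gave 33 fallen in siMRGBP, and the cause was not tested.

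Leaving out 1 library gave ranges of risen and fallen counts against siLuc of 43 to 53 and 32 to 46 in siMRG15, 29 to 36 and 47 to 63 in siMRGX, 32 to 39 and 36 to 49 in siMRGBP, 26 to 41 and 22 to 35 in siBRD8, and 69 to 79 and 41 to 46 in siTIP60. Against the other knockdowns they were 56 to 66 and 46 to 55, 26 to 33 and 73 to 83, 27 to 35 and 37 to 67, 19 to 36 and 28 to 56, and 73 to 83 and 33 to 46, and 56 to 71 and 31 to 38 for siMRG15 against siMRGX. With TMM factors siMRGX had 42 risen and 50 fallen members.

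A replicate block gave 51 and 41 members in siMRG15, 34 and 56 in siMRGX, 38 and 49 in siMRGBP, 36 and 32 in siBRD8 and 76 and 45 in siTIP60. The labels give replicate numbers alone, and same-numbered libraries did not deviate together: over 15 pairs of groups the correlation of deviations ran from -0.47 to 0.183, above 0.1 in 3. Depth limits the 49 members under 1 CPM most, where 1 read is 0.00906 to 0.0175 CPM.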
